A study of Drosophila melanogaster with 2 samples.

Results

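The genes described here encode the subunits of the 26S proteasome, and the question was which of them carried Crc-eGFP at their promoters. They were chosen by symbol alone: protein-coding genes of the Ensembl BDGP6 annotation whose symbol starts with Prosalpha, Prosbeta, Rpn or Rpt followed by a number. The rule found 48 genes among 13945 protein-coding genes on the 6 chromosome arms that the peak lists cover. Of these 48, 25 belong to the core particle and 23 to the regulatory cap. By another division, 32 are the standard subunit genes and 16 are paralogues, marked by a T or an R after the number.

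Crc, the product of cryptocephal (crc), is the fly counterpart of the stress-response factor ATF4. The chromatin came from whole embryos of mixed sex, collected 0 to 24 h after laying, of a crc-MiMIC-GFP line in which an added eGFP exon inside an intron of crc tags the protein made from the endogenous gene. There was 1 group of 2 biological replicates, and chromatin was precipitated with an antibody against GFP. All embryos carried the tag, no untagged library was analysed here, and whole embryos mix all tissues, so a summit does not show in which cells the protein was bound. With no second condition and with genes that are not replicates of a condition, the counts below are given as a description, without a test, beside the same count over all genes.

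The proteasome degrades proteins marked with ubiquitin. Its barrel-shaped core is built from outer rings of alpha subunits and inner rings of beta subunits, of which beta1, beta2 and beta5 cut peptide bonds. The cap has a base, with a ring of Rpt ATPases that unfold the substrate, and a lid, whose Rpn11 subunit removes the ubiquitin chain. Cells that need more proteasomes raise many subunit genes together, a response carried in animals by Nrf1-type factors, of which cnc encodes the fly member. Several fly subunits have paralogues known for expression in the male germ line.

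Summits were read from 4 peak lists of the authors: candidates of replicate 1, candidates of replicate 2, candidates of the pooled reads, and the 2420 optimal peaks, kept by the authors for their reproducibility between replicates (irreproducible discovery rate). These are the 2420 strongest of the pooled list. Bound genes are those with the summit of an optimal peak no more than 500 bp from an annotated start. Each replicate list holds 30000 regions and the pooled list 24369, so a rank near the end of a list marks a very weak candidate. The signal is the authors' own score for each peak. No normalization is stated for it and the read depth is unknown, so signals are compared within a list and lists are compared by rank.

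The promoters below carry the results that follow. They are reference sequence of Release 6 (dm6), read 5′ to 3′ on the strand of the member from the RefSeq copy of the genome, and capitals mark TATCGATA, the DNA replication-related element (DRE) to which the factor Dref binds. For Rpn5 the 201 bases around the strongest summit are shown, at chr3R:5789118-5789318 on the forward strand, because they hold the strongest signal of the family. These 201 bases have none of the 6 motifs searched and so no capitals. Outside them, nearer the gene, an antioxidant response element (TGANNNNGC) begins 153 bases before the Rpn5 start.
Rpn5: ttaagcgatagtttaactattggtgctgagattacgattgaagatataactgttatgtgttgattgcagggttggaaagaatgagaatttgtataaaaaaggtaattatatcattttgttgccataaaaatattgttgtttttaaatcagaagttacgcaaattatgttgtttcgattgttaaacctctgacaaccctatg
For Rpn3, the other bound member, 250 bases before to 50 after the gene start are shown, at chr2L:19051540-19051839 on the forward strand.
Rpn3: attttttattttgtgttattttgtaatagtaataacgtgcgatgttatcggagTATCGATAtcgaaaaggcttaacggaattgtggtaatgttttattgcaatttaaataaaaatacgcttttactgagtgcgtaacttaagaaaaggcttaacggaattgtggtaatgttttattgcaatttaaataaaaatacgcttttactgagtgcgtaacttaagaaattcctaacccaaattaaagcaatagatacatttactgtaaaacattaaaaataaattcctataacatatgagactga
Rpt5 has a DRE close to its start and a candidate that was not optimal, at chr3R:23752626-23752925 on the forward strand.
Rpt5: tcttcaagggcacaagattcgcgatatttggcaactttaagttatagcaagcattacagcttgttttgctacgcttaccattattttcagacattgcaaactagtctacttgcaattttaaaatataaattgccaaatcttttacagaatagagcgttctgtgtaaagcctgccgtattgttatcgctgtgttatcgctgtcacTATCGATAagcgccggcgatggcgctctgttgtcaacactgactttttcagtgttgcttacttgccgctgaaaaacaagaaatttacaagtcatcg
Prosbeta6 has a DRE at nearly the same place and no pooled candidate, at chr3L:16610369-16610668 on the reverse strand.
Prosbeta6: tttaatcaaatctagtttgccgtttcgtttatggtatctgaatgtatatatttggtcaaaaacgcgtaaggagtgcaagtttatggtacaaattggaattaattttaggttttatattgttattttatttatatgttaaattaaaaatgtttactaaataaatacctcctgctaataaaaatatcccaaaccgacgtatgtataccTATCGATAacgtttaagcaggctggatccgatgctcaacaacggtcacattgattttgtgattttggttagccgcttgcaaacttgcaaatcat

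Bound members were the lid genes Rpn5 and Rpn3 alone, 2 of 48 or 4.17%, against 11.5% of all protein-coding genes. Both products are scaffold subunits of the lid. Among the 22 members with a pooled candidate the count was again 2, or 9.09%, against 25.3% of all genes with a pooled candidate. Both shares of the proteasome genes were below those of the annotation at large, and neither difference was tested.

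Rpn5 (FBgn0028690, chr3R:5789493-5791569) had a signal of 155.4 in the pooled list, 64.5 in replicate 1 and 93.9 in replicate 2. Its strongest peak, at chr3R:5789018-5789417, ranked 504 in the pooled list, 491 in replicate 1 and 493 in replicate 2. Among all genes with a candidate, Rpn5 stood at percentile 93.7, 93.1 and 94.9 in these lists. Its place was therefore high and nearly the same in both libraries. The summit lay 275 bp upstream of the Rpn5 start, inside an intron of Hat1, the divergent neighbour that encodes a histone acetyltransferase. A further optimal peak, with a signal of 96.1 and rank 1231, had its summit 74 bp upstream of Rpn5 and 35 bp from the nearer of 2 Hat1 starts. The 400-bp intervals of the 2 peaks overlap, and replicate 2 had a single summit between them, 190 bp upstream of Rpn5. The strongest summit lay between the 2 Hat1 starts, 144 and 166 bp from them. Only the weaker one lay between the divergent starts of Hat1 and Rpn5. Position alone cannot assign either summit to 1 gene. When each summit was given only to the gene with the nearest start, both went to Hat1.

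Rpn3 (FBgn0261396, chr2L:19051790-19053681) had a pooled signal of 94.0, with 40.0 in replicate 1 and 56.0 in replicate 2. It ranked 1284, 1236 and 1290, again nearly alike in both libraries. The peak at chr2L:19051572-19051971 had its summit 18 bp upstream of the first start, in intergenic DNA, and 160 bp from the divergent start of l(2)37Bb. Replicate 1 placed the summit 59 bp downstream, in the 5' UTR, and replicate 2 placed it 30 bp upstream. Its signal was close to the median of the optimal peaks, 96.9, so that it was not among the 1210 strongest, where Rpn5 was the only member.

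The promoter of Rpn3 held a long tandem repeat. A stretch of 78 bases beginning 187 bases before the start recurs exactly, 78 bases downstream. Of all protein-coding promoters of 300 bases, 22 of 13945, or 0.158%, held an exact direct repeat of 30 bases or more, and the median longest repeat was 8 bases. No other member had one longer than 16 bases. Both copies lie inside the pooled peak, and their part in its signal was not tested.

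**Figure D1:**
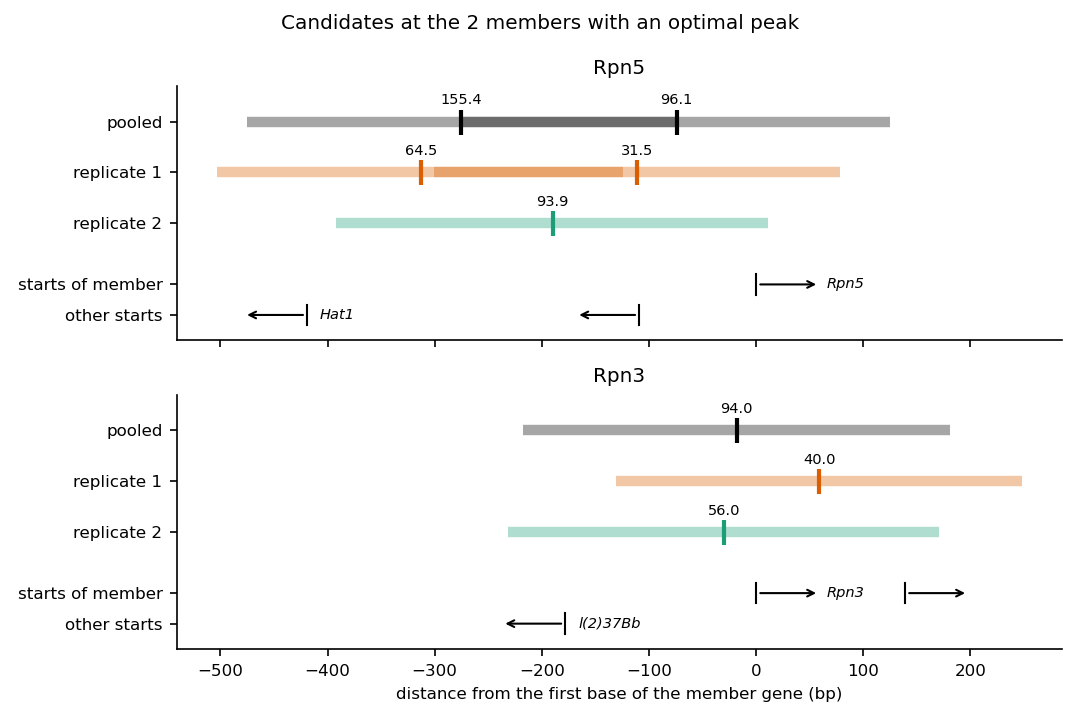
Peak intervals (bars) and summits (ticks) at Rpn5 and Rpn3 in the pooled list and in each replicate, by distance in bp from the first base of the member, with each summit's signal above it and annotated starts as arrows. At Rpn5 the signal of 155.4 lies between annotated starts of Hat1, and that of 96.1 between the nearer Hat1 start and the Rpn5 start. At Rpn3 the summits lie between 30 bp upstream and 59 bp downstream of its first start.

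The lowest optimal signal was 63.98, and 3 members came next below it. Rpn11, the deubiquitinase gene of the lid, had a pooled signal of 57.7, with 27.2 in replicate 1 (rank 2541) and 21.8 in replicate 2 (rank 6499). Prosalpha3, an alpha ring gene, had 55.4, with 29.3 in replicate 1 (rank 2208) and 26.8 in replicate 2 (rank 4511). Rpt2, an ATPase gene of the base, had 52.4, with 17.2 in replicate 1 (rank 7851) and 34.9 in replicate 2 (rank 2903). Each of the 3 ranked higher in one library than in the other, whereas Rpn5 and Rpn3 ranked nearly alike in both. The optimal list was kept for reproducibility between replicates, so this contrast is no independent result about these genes. All had a second, weaker pooled candidate within reach of a start, of 34.3 at Rpn11, 23.8 at Prosalpha3 and 29.2 at Rpt2.

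Core genes had a candidate less often than cap genes in the pooled list and in both replicates, whereas the order of their median signals depended on the library. No core gene was bound, 0 of 25, against 11.5% of all genes. Bound cap genes were 2 of 23 (8.70%), or 2 of the 18 standard cap genes (11.1%), a share near that of all genes. A pooled candidate was present at 6 of 25 core genes (24%), against 16 of 23 cap genes (69.6%) and 45.6% of all protein-coding genes. More than 1 annotated start was present at 2 of 25 core genes and 10 of 23 cap genes, against 26.5% of all genes. Among standard genes the counts were 2 of 14 and 8 of 18. More starts put more positions within reach of a summit, and the part of this in the difference was not tested. Paralogues make up 11 of the core genes and 5 of the cap genes. Within the standard subunits, 6 of 14 core genes (42.9%) had a pooled candidate, against 14 of 18 cap genes (77.8%). The median pooled signal of those candidates was 29.4 in the core and 42.0 in the cap, against 37.8 over all 6352 genes with a candidate. In replicate 1 the order was the reverse, with medians of 19.5 in 5 standard core genes and 16.7 in 11 standard cap genes, while in replicate 2 they were 16.2 and 22.6. The pooled ranges overlapped widely, 19.4 to 55.4 for the standard core genes and 22.4 to 155.4 for the standard cap genes.

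In the alpha ring, 4 of 7 standard genes had a pooled candidate, against 45.6% of all genes. Prosalpha3 led, followed by Prosalpha2 (30.1), Prosalpha7 (27.2) and Prosalpha6 (19.4). Prosalpha2 had 14.0 in replicate 1 (rank 14146) and 21.1 in replicate 2 (rank 6874), and Prosalpha7 had 18.2 in replicate 2 (rank 8995) and no candidate in replicate 1. The Prosalpha6 summit lay 420 bp inside the gene, in a coding exon, at almost the lowest signal of the whole list, 18.8. Prosalpha4 had no pooled candidate, although each replicate had one, of 19.5 in replicate 1 and 12.2 in replicate 2, with summits 290 bp apart. Prosalpha5 had a candidate in replicate 2 alone, of 12.6, and Prosalpha1 had none in any list.

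In the beta ring, 2 of 7 standard genes had a pooled candidate, against 45.6% of all genes. Prosbeta1, the gene of the caspase-like catalytic subunit, had a signal of 46.1, with 19.8 in replicate 1 (rank 5291) and 25.1 in replicate 2 (rank 5087). It shares that summit with Rrp42, in whose 5' UTR it lies. Prosbeta3 had 28.6, with 15.3 in replicate 1 and 11.4 in replicate 2. The other catalytic genes, Prosbeta2 and Prosbeta5, had no pooled candidate and were seen in replicate 2 alone, with signals of 9.34 (rank 29442) and 18.3 (rank 8833). The Prosbeta5 summit lay 347 bp upstream, in the 5' UTR of dgo. Prosbeta6 (14.3) and Prosbeta7 (10.3) were also seen in replicate 2 alone, and Prosbeta4 in no list. The nearest optimal summit to any unbound member lay 1111 bp from a start of Prosbeta6.

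In the base of the cap, 8 of 10 standard genes had a pooled candidate, against 45.6% of all genes. None of the 10 was bound, against 11.5% of all genes. Rpt2 was highest, then Rpn13 (45.0), a ubiquitin receptor gene, Rpt5 (44.7) and Rpn10 (41.5), the gene of another ubiquitin receptor. Rpn1 (29.0), Rpn2 (28.0), Rpt3 (27.2) and Rpt6 (26.6) were lower. The Rpt3 summit lay 358 bp upstream of Rpt3 and 17 bp from the start of CG11122. Rpn13 had a signal of 29.2 in replicate 2 (rank 3952) and no candidate in replicate 1. Rpt5 had 16.7 in replicate 1 (rank 8576) and 23.9 in replicate 2 (rank 5501). Rpt1 and Rpt4 had no pooled candidate, with a lone candidate of 11.1 in replicate 1 for Rpt1 and of 13.7 in replicate 2 for Rpt4. The ATPase ring as a whole therefore had 4 of 6 genes with a pooled candidate and none bound. These are too few genes to set that count apart from the 11.5% of all genes.

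In the lid, 6 of 8 standard genes had a pooled candidate, against 45.6% of all genes. Their median signal was 50.1, the highest of the modules. It was also highest in replicate 1, with 21.8, but in replicate 2 its median of 17.7 was below the 23.7 of the base and the 18.9 of the alpha ring. Below Rpn5, Rpn3 and Rpn11 came Rpn6 (42.5), Rpn12 (36.0) and Rpn7 (22.4). The Rpn7 summit lay 407 bp upstream of Rpn7, in the 5' UTR of AP-2mu and 6 bp from the start of that gene. Rpn6, a scaffold subunit gene, had 16.3 in replicate 1 and 25.2 in replicate 2, with summits 2 bp apart. Rpn8 (12.6) and Rpn9 (13.5) were seen in replicate 2 alone. In replicate 2 all 8 standard lid genes had a candidate, against 51.6% of all genes. The other modules were close to this, with 9 of 10 in the base and 6 of 7 in each of the alpha and beta rings. In replicate 1 a candidate was present at 6 of 8 standard lid genes, against 44.6% of all genes. There the base had 5 of 10, the alpha ring 3 of 7 and the beta ring 2 of 7.

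**Figure D2:**
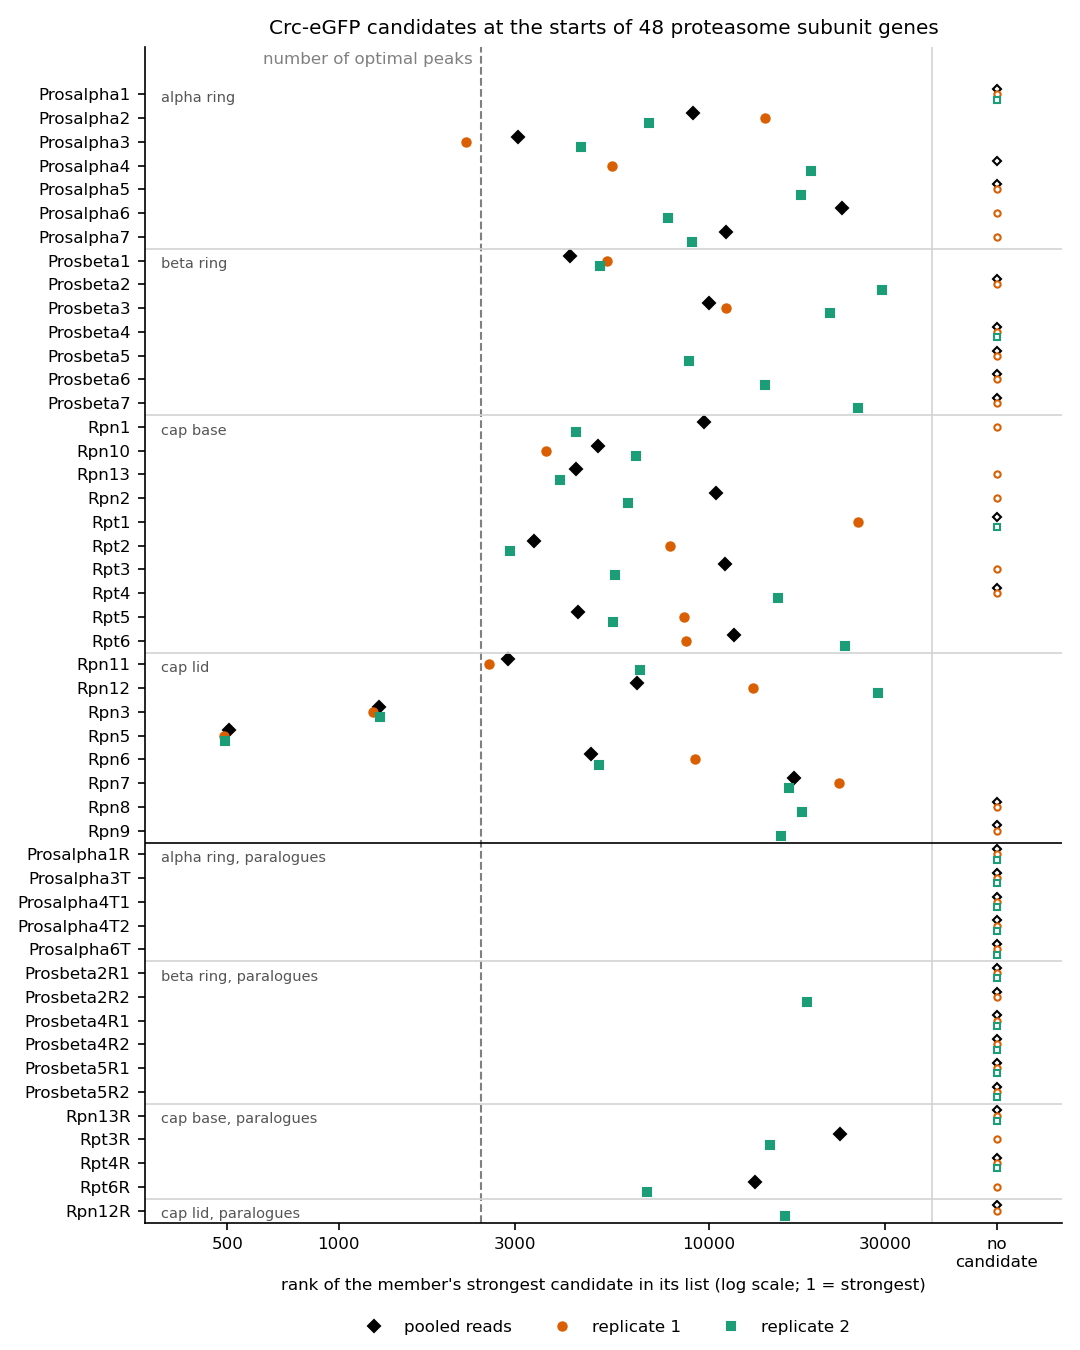
Rank of each member's strongest candidate within 500 bp of a start, on a log axis, in the pooled list (diamonds) and in replicates 1 (circles) and 2 (squares), with open symbols where a list has no candidate and a dashed line at the number of optimal peaks, 2420. Rpn5 and Rpn3 lie left of the line in all 3 lists, and 12 of 16 paralogues have no candidate in any.

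The standard genes differed from the paralogues in whether they had a candidate at all. Of the 32 standard genes, 20 had a pooled candidate (62.5%), against 2 of 16 paralogues (12.5%) and 45.6% of all genes. In replicate 1 a candidate was present at 16 of 32 standard genes, near the 44.6% of all genes, and at no paralogue. In replicate 2 the counts were 29 of 32 standard genes and 4 of 16 paralogues, against 51.6% of all genes. No paralogue was bound, 0 of 16, against 11.5% of all genes. The ATPase paralogues Rpt6R and Rpt3R had pooled signals of 25.0 and 19.6, and signals of 21.2 and 14.1 in replicate 2. Rpn12R (13.3) and Prosbeta2R2 (12.4) had a candidate in replicate 2 and no pooled one. The Rpt3R summit is shared with Alg12, a gene of protein glycosylation. All 5 alpha ring paralogues, Prosalpha1R, Prosalpha3T, Prosalpha4T1, Prosalpha4T2 and Prosalpha6T, had no candidate in any list.

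Set beside the standard gene of the same number, the paralogue was never the one of the pair with the only pooled candidate. Of 16 pairs, in which 12 standard genes serve as partners, 4 had one at the standard gene alone, 2 at both and 10 at neither. At Rpt6 and Rpt6R the pooled signals were close, 26.6 and 25.0, and at Rpt3 and Rpt3R they were 27.2 and 19.6. In replicate 2, where 4 paralogues had a candidate, the standard gene had the lower signal in 3 pairs. The values were 10.8 at Rpt6 against 21.2 at Rpt6R, 9.50 at Rpn12 against 13.3 at Rpn12R, and 9.34 at Prosbeta2 against 12.4 at Prosbeta2R2. Rpt3 had the higher signal, 23.7 against 14.1 at Rpt3R. Rpn12 (rank 28678) and Prosbeta2 (rank 29442) were near the end of that list. The Rpn12R summit lay 447 bp upstream, in a coding exon of ind, and the Prosbeta2R2 summit in the 5' UTR of CG1116. As a reference for genes of the male germ line, 6 testis genes (aly, can, comr, dj, Mst87F and betaTub85D) had no pooled candidate, with 1 candidate in each replicate. The paralogues also differed from the standard genes in how their promoters are placed: 21 of 32 standard genes had the start of another protein-coding gene within 500 bp of their own, against 3 of 16 paralogues and 30.9% of all genes.

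**Figure D3:**
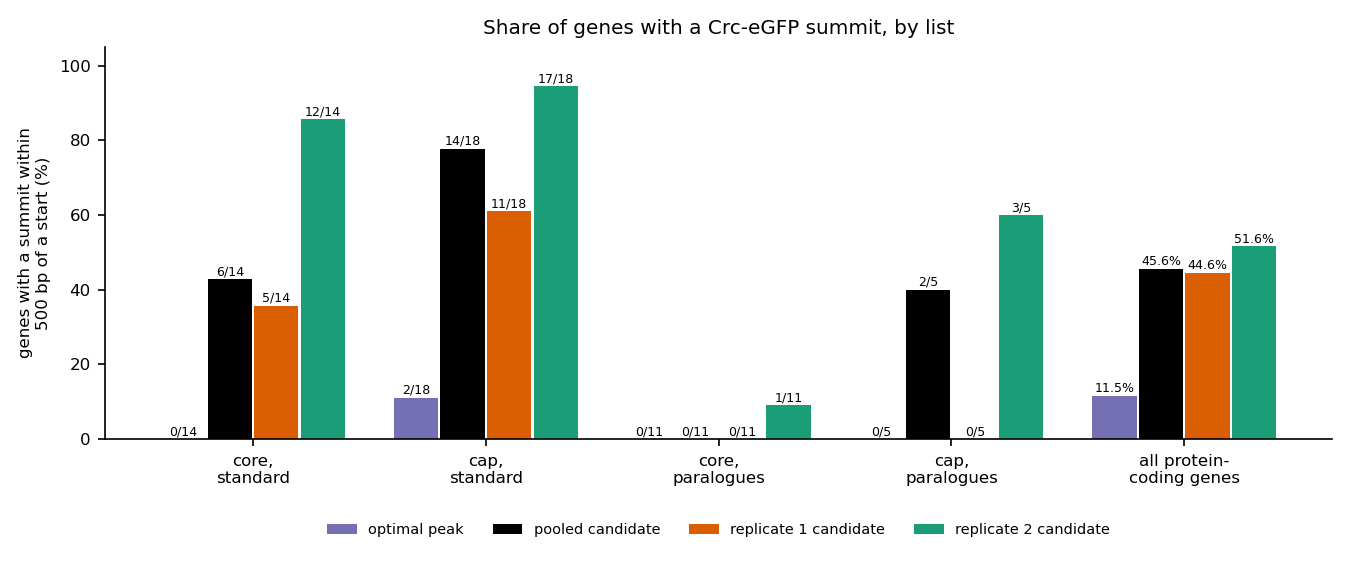
Share of genes with a summit within 500 bp of a start in the optimal, pooled, replicate 1 and replicate 2 lists, for standard and paralogue genes of the core and the cap and for all protein-coding genes, with counts above the bars. Standard core genes exceed all genes in replicate 2 alone (12 of 14 against 51.6%) and lie below them in replicate 1 (5 of 14 against 44.6%), while standard cap genes exceed them in the pooled list and in both replicates.

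The libraries differed in how many members they held. Replicate 1 had a candidate at 16 of 48 members (33.3%), against 44.6% of all genes, and replicate 2 at 33 of 48 (68.8%), against 51.6%. Candidates in replicate 2 alone were found at 18 members (37.5%), against 16.8% of all genes, and in replicate 1 alone at 1 member, Rpt1, against 9.80% of all genes. Members with a candidate in both numbered 15 of 48, near the 34.8% of all genes. The median percentile of the members among genes with a candidate was 45.7 in replicate 1 and 43.2 in replicate 2. Over the 15 shared members, which come from the same 2 libraries, the signals had a Spearman rho of 0.68, against 0.72 over 4852 genes with a candidate in both. Summits of the 15 lay 74 bp apart at the median and within 100 bp of each other in 9, against a median of 65 bp and 60.2% over those 4852 genes.

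Most summits lay just upstream of the start. Of the 22 pooled candidates, 19 were upstream (86.4%), against 70.6% over all genes with a candidate. The median position was 78.5 bp upstream, against 90 bp for all genes with a candidate, and 18 of 22 were within 200 bp of a start, or 81.8%, against 61.0%. A summit shared with another gene's start within 500 bp was found for 14 of the 22 members (63.6%), against 44.2% over all genes with a candidate. Among genes with a close neighbour, meaning another gene's start within 500 bp of their own, 21.7% were bound over the whole annotation. Of the 24 members with one, 2 were bound, or 8.33%. Among genes with no close neighbour 6.93% were bound, and 0 of 24 members. The members' share was below that of all genes in both classes, although 24 of 48 members had a close neighbour, against 30.9% of all genes.

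**Figure D4:**
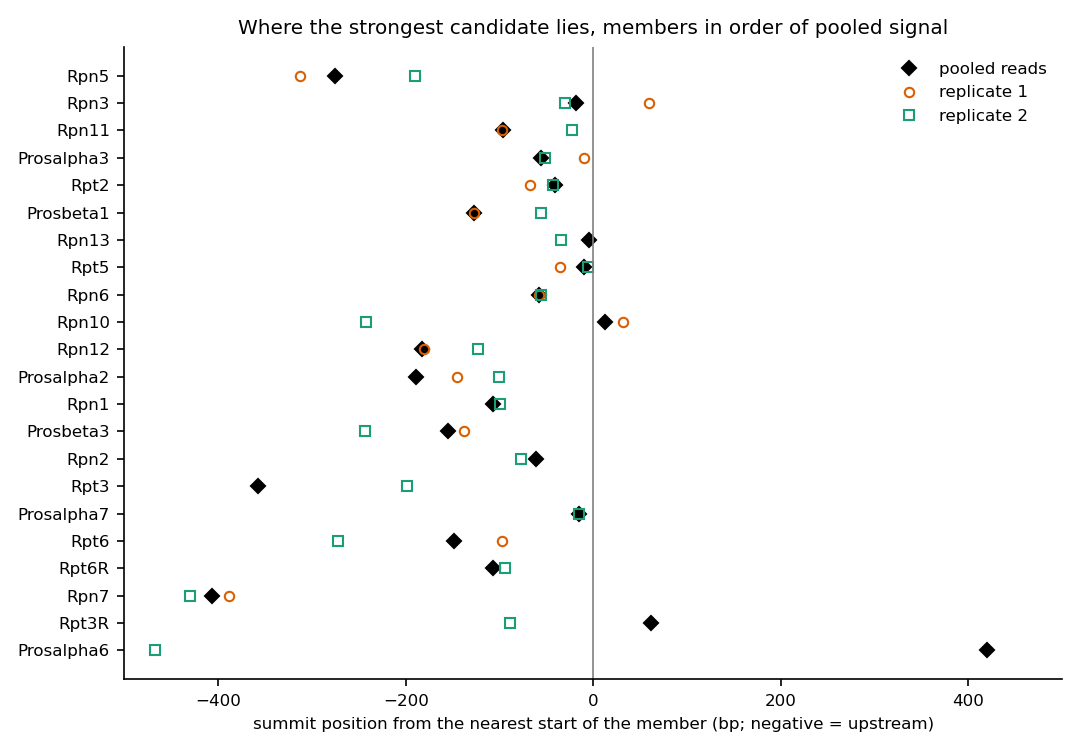
Position of the strongest summit relative to the nearest start of the member, in bp with negative values upstream, for the 22 members with a pooled candidate in order of pooled signal, in the pooled list (diamonds), replicate 1 (circles) and replicate 2 (squares). Most summits lie within 200 bp upstream, and the pooled summit of Prosalpha6 lies 420 bp downstream.

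Of the 6 motifs, the DRE was the one found in most standard promoters. Each motif was searched on both strands from 250 bases before to 50 after the gene start. The DRE occurred in 6 of 14 standard core genes (42.9%), 6 of 18 standard cap genes (33.3%) and 0 of 16 paralogues, against 9.36% of all protein-coding promoters. Its first base lay 46 bases before the start in Rpt5, 44 in Prosbeta6 and 197 in Rpn3. Of the 12 standard genes with a DRE, 8 had a pooled candidate and 1, Rpn3, was bound, whereas of the 20 without one 12 had a candidate and 1, Rpn5, was bound. Over all genes with a DRE, 64.8% had a pooled candidate and 17.2% were bound, against 45.6% and 11.5% of all protein-coding genes.

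Motif 1 (GGTCACACT), a core promoter element bound by M1BP, occurred in 5 of 48 member promoters (10.4%), against 6.05% of all, with 3 of them in the core. The core of the C/EBP-ATF response element (CARE, TGATGNAA), the type of site that ATF4 recognises, occurred in 1 member promoter, that of Prosbeta5 (2.08%), against 4.07% of all, and within 100 bp of none of the 22 pooled summits. Over all genes, 3.02% of pooled summits had one that close, so a count of 0 is near the background. The antioxidant response element (TGANNNNGC), to which Nrf-type factors bind, occurred in 14 of 48 (29.2%), against 35.6% of all. The GAGA element (GAGAG) was found in 9 of 48 (18.8%), against 29.7% of all, and 6 of those 9 were paralogues. The E-box CAGCTG was found in 2 of 48 (4.17%), against 17.7% of all. Short motifs of this kind can overlap each other, and a match says nothing about binding by a factor.

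**Figure D5:**
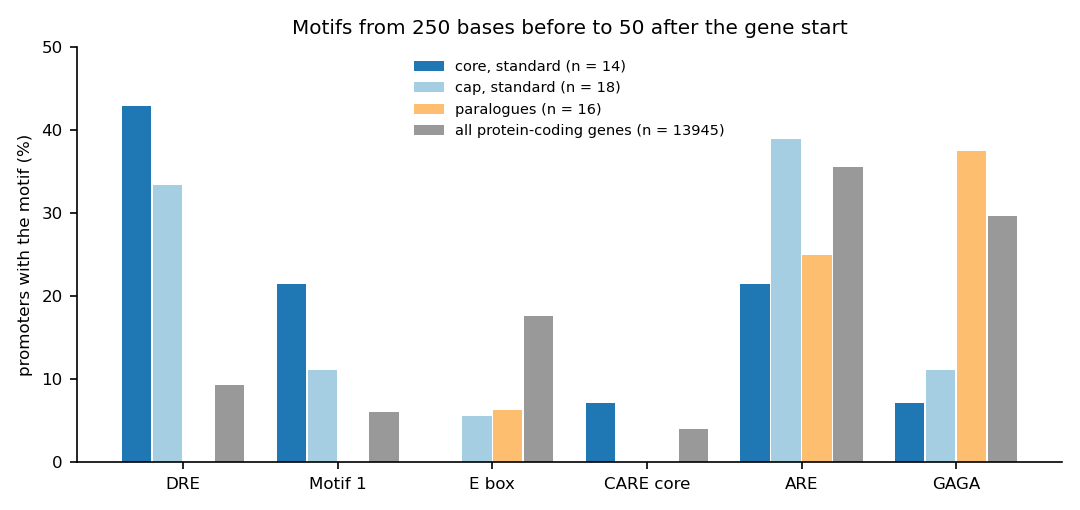
Share of promoters, from 250 bases before to 50 after the gene start, that hold each of 6 motifs on either strand, for standard core genes, standard cap genes, paralogues and all protein-coding genes. The DRE stands at 42.9% and 33.3% in standard core and cap genes and at 0 in paralogues, against 9.36% of all genes.

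Other genes of the ubiquitin and proteasome system, which build, regulate or feed the proteasome, had a median pooled signal of 49.1 where they had a candidate. All subunit genes with a candidate had 33.1, and the standard ones 38.7, near the 37.8 of all genes with a candidate. Of 21 such genes, 18 had a pooled candidate, against 45.6% of all genes, and 3 were bound, a share near the 11.5% of all genes. Pomp, the gene of a chaperone that completes the core, had a signal of 86.7, with 45.0 in replicate 1 (rank 971) and 46.4 in replicate 2 (rank 1772). Uch-L5, a deubiquitinase gene of the cap, had 86.1, with 37.9 in replicate 1 (rank 1357) and 42.0 in replicate 2 (rank 2112), at a summit shared with Jarid2. RpS27A, which encodes ubiquitin fused to a ribosomal protein, had 103.7, with 45.7 in replicate 1 (rank 945) and 42.8 in replicate 2 (rank 2045). That gene also belongs to the ribosome, and the summit is shared with Ip259.

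The regulators of proteasome genes lay just under or far from the threshold. The candidate of cnc, a gene with 10 annotated starts, had 60.6 in the pooled list, with 16.5 in replicate 1 (rank 8912) and 42.7 in replicate 2 (rank 2065). Keap1, which encodes the adaptor that restrains the Cnc protein, had 55.1, with 41.8 in replicate 1 (rank 1125) and 14.6 in replicate 2 (rank 13659), so cnc ranked higher in replicate 2 and Keap1 in replicate 1. The gene of their small Maf partner, maf-S, had 26.1, and TER94, the gene of the p97 ATPase that hands substrates to the proteasome, had 30.2. Sem1, a small lid subunit gene that the symbol rule does not reach, had 33.9.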

How the data were processed

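Crc-eGFP ChIP-seq peak lists of 2 biological replicates, from embryos of 0 to 24 h with chromatin sonicated to 200 to 800 bp per the labels, were used on the dm6 build. The authors made candidate lists for each replicate and for both pooled against a control, and an optimal list by the irreproducible discovery rate, per the deposited file listings. The labels and listings name no aligner, peak caller or read depth. The deposited signal of each peak (narrowPeak column 7), with no stated normalization, was taken as it stands. The dm3 lists were not used, as no dm3 annotation was at hand. Starts were all transcript starts of protein-coding genes in Ensembl BDGP6.54 (release 115). The 41 genes on sequences with no peaks were left out. Each gene took its strongest peak with a summit within 500 bp of a start. Sequences came from RefSeq Release 6, whose coordinates are those of dm6, and no coordinate was moved between builds. Peak assignment was tested on simulated data. Ufd1 was found through its synonym Ufd1-like. Members were chosen by symbol, but members, lists and motifs were proposed with earlier results of these data known, and the repeat search was added after the Rpn3 promoter was read. Named genes were every bound member, the 5 next highest of core and cap, the 3 just under the threshold, every paralogue with a candidate and every standard gene without a pooled one. Values of other members are given beside them. Versions were Python 3.11.15, numpy 2.4.6, pandas 2.3.3, scipy 1.17.1 and matplotlib 3.10.9.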

Additional observations from a re-analysis of the deposited data

How the results depend on the processing

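The bound members were Rpn5 and Rpn3 at limits of 200 bp and 1000 bp, with gene starts alone, with the peak interval in place of the summit, and without replicate 1, when the 2420 strongest candidates of replicate 2 stood in for the optimal list. Giving each summit to the nearest start only left 1 bound member, in the cap and among the standard genes, which was Rpn3, because both Rpn5 summits lie nearer to a Hat1 start. The 1210 strongest optimal peaks also left 1, Rpn5, and left 1 of the other ubiquitin and proteasome genes, RpS27A. Leaving out a replicate gave 2 to 3 bound members, 0 to 1 in the core, with Prosalpha3 added without replicate 2, and 5 to 7 of the other ubiquitin and proteasome genes, where the pooled list gave 3. The share of all genes bound was 11.5% without replicate 1 and 11.8% without replicate 2. Paralogues had 0 bound under all 8 alternatives. Median pooled signals moved to between 28.7 and 30.1 in the core and between 36.0 and 42.0 in the cap, for all members of each. In the lists of single replicates the order of core and cap depended on the library, with core and cap medians of 19.5 and 16.7 in replicate 1 and of 14.3 and 22.0 in replicate 2. In windows within 100 bp of the summit, which only members with a candidate have, the CARE core was at 0%, the antioxidant response element at 18.2% and the GAGA element at 4.55%, against 3.02%, 24.5% and 20.8% over all genes with a candidate. No paired analysis was possible because there is 1 group and the result comes from no test. The unknown read depth limits what the weak candidates can show, and a member without a candidate was not detectable in these lists rather than shown to be free of Crc.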
